A study of Mus musculus with 58 samples.

Results

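RNA from naive CD4+ T cells of mice that carry a miR-17~92 transgene was compared with RNA from naive CD4+ T cells of wild-type mice. The comparison uses 7 of the 58 libraries of the series, 4 from transgenic (TG) and 3 from wild-type (WT) mice, chosen by their labels alone, and it was made over all genes that passed a filter on low counts. The TG genotype is CD4cre.Rosa26loxSTOPloxCAG-miR-17∼92Tg, labelled tg/tg: Cre recombinase, made under the control of Cd4, removes a stop cassette in the Rosa26 locus, after which the CAG promoter drives the added cluster. WT mice are labelled wildtype, with neither Cre nor a transgene named. A further 3 naive libraries come from CD4cre.miR-17∼92lox/lox mice (KO), in which the same Cre deletes the cluster, so by these names TG and KO cells share Cre and WT cells lack it. Because Cre is restricted to cells that express Cd4, the model changes the cluster in T cells only from the stage in the thymus at which Cd4 is switched on. All naive cells were isolated with a commercial kit for naive cells from pooled lymph nodes and spleen, were not cultured, and were sequenced as polyadenylated RNA. The protocol names 10 mice of both sexes without dividing them among libraries. The p-values below therefore measure the spread between libraries of a group, which may be partly technical. That spread was estimated over all 58 libraries in 15 groups, most of them stimulated, and not over the 7 alone.

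MicroRNAs are short RNAs that guide Argonaute proteins to matching sites, mostly in the 3′ untranslated regions (3′ UTRs) of messenger RNAs, where they lower translation and RNA stability. The miR-17~92 cluster is made as a single primary transcript that is cut into hairpins, and its mature products fall into families that share a seed, the stretch near the 5′ end that pairs with targets. In T cells the cluster is switched on after stimulation through the antigen receptor and CD28, and it is known for supporting proliferation, survival and T follicular helper differentiation. Naive T cells are resting cells that normally hold little of it.

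The mature microRNAs of the cluster are shown because their seeds define the target classes used below. Sequences are from RefSeq (GRCm38.p6, chromosome 14, plus strand), 5′ to 3′, with the seed, bases 2 to 8, in capitals. They fall into 4 seed families: miR-17 with miR-20a, miR-18a, miR-19a with miR-19b, and miR-92a.
miR-17-5p: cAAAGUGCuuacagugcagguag
miR-20a-5p: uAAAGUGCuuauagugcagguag
miR-18a-5p: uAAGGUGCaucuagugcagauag
miR-19a-3p: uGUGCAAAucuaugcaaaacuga
miR-19b-3p: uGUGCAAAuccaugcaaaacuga
miR-92a-3p: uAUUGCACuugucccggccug

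The 7 libraries were even in depth, at 20.25 to 20.81 M exonic counts, and intronic counts made up 24.63% to 28.64% of all counts in TG and 24.5% to 30.73% in WT libraries. Replicate 3 exists for TG only. The mix of the sexes may differ between libraries. Genes of the Y chromosome summed to 115.56 to 290.57 CPM in TG and 185.18 to 257.76 in WT libraries. Xist, a transcript of female cells, stood at 211.38 to 493.59 and 307.32 to 423.66. The part of this mix in the changes below was not tested. The first principal component of log2 levels held 32.5% of the variance and put all TG libraries on one side, with TG replicate 4 the farthest out among them. Markers of helper T cells were present throughout: Cd4, the co-receptor, stood at 1206 ± 169 CPM (SD, n = 4; CPM are counts scaled to 1 M counts per library) in TG and 1099 ± 66.7 (n = 3) in WT cells, and Cd3e at 510 ± 25.2 and 477 ± 12.4. Other cells left traces that overlapped between the groups, such as Cd8a of cytotoxic T cells (13.2 ± 4.18 in TG, 14.99 ± 3.41 in WT). Summed over their lists, B cell markers stood at 953.7 to 1482.3 CPM in TG and 860.4 to 1619.2 in WT libraries, NK and innate-like markers at 215.2 to 370.8 and 233.2 to 350.0, and myeloid markers at 230.2 to 471.7 and 278.2 to 585.7. In bulk RNA, fewer cells of a kind and less RNA per cell cannot be told apart.

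The marks of the engineered alleles came first. Mir17, the row of the miR-17 hairpin on chromosome 14 (115043671 to 115043754), held 198, 133, 142 and 69 counts in the TG libraries and 5, 3 and 2 in the WT libraries. Mir18 held 183, 191, 142 and 111 against 4, 4 and 3, and Mir20a held 70, 73, 86 and 34 against 12, 2 and 2. Every TG library was above every WT library for these 3 hairpins, and in KO cells, as a check of the deletion, Mir18, Mir19a and Mir20a were at 0 CPM in all 3 libraries, while Mir17 was at 0 CPM in replicates 1 and 4 and at 0.144 CPM in replicate 2, within the WT range of 0.0948 to 0.255. The rises were 5.28 ± 0.72 for Mir17, 5.36 ± 0.61 for Mir18 and 3.56 ± 0.58 for Mir20a (log2 change with SE, edgeR adjusted p 2.3e-06, 7.38e-08 and 7.7e-05). Mir19a was sparser, at 19, 8, 10 and 10 counts against 2, 3 and 3 (edgeR adjusted p 0.0425), and its call was kept in 2 of the 7 fits that left out 1 library. The host transcript Mir17hg stood at 103, 82.7, 84.7 and 58.8 CPM in TG and 35.9, 29.9 and 24.5 in WT cells, a rise of 1.45 ± 0.34 (edgeR adjusted p 0.00398). In KO cells Mir17hg stood at 56.3, 48.6 and 38.3 CPM, each above the highest WT library. The log2 change there was 0.67 and was not called (edgeR adjusted p 0.996). TG replicate 4 had the lowest Mir17, Mir18, Mir20a and Mir17hg values of the 4 TG libraries. Polyadenylated RNA is not the mature microRNA, which was not measured here.

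Gt(ROSA)26Sor, the noncoding transcript of the locus that received the transgene (chromosome 6, 113067428 to 113077244), stood at 1.71, 0.724, 0.239 and 0.399 CPM in TG and 7.45, 7.21 and 4.26 in WT cells. It fell by 3.03 ± 0.37 on the log2 scale (edgeR adjusted p 9.92e-08), while in KO cells, whose labels name no change at Rosa26, it stood at 8.09 ± 0.951 CPM (SD, n = 3). Its intronic counts did not pass the test, at 30.4 ± 9.94 CPM in TG and 34.65 ± 1.65 in WT cells (edgeR adjusted p 0.893). Gh, the growth hormone gene, was the largest rise of all genes tested at 5 CPM or more. It stood at 32.8, 25.8, 42.3 and 17.5 CPM in TG, 33.7, 43.9 and 20.6 in KO and 0.255, 0.387 and 0.142 in WT cells, so both genotypes with Cre were high. Intronic counts of Cd4 followed the same split, at 1079, 1309, 1475 and 1251 CPM in TG, 1277, 1613 and 1697 in KO and 212, 239 and 308 in WT cells, whereas exonic counts of Cd4 did not pass the test (log2 change 0.13 with SE 0.11, edgeR adjusted p 0.526). KO cells, which by their labels carry Cre and not the added cluster, were high for both: Gh had a log2 change of 6.94 against WT in KO and 6.79 in TG cells (edgeR adjusted p 8.45e-18 and 9.86e-18), and the lowest KO library was above the highest WT library for Cd4 introns.

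Across all genes, edgeR called 1074 of 13709 genes tested (7.83%) at a Benjamini-Hochberg adjusted p under 0.05, 594 higher in TG cells (4.33%) and 480 lower (3.5%). Most changes were small: 54.9% of called genes changed by less than 1.5-fold, and the median called change was 0.55 upward and −0.55 downward. At least 2-fold changes numbered 122 upward and 80 downward. TG and WT libraries did not overlap for 945 called genes (88.0%), beside 3114 of all genes tested (22.7%). The call rate differed by level: with genes split into 4 equal groups by mean CPM it was 3.59% in the lowest group, 9.80% in each middle group and 8.14% in the highest. Of 486 long noncoding RNAs tested, 18 were called, 15 lower and 3 higher.

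A single library weighed on this count. Without WT replicate 4 it was 526, without TG replicate 4 it was 636 and without WT replicate 2 it was 646, and the other 4 left-out libraries gave 742 to 1195. In all 7 such fits together, 345 genes were called each time, 188 higher and 157 lower, and no called gene changed its direction. The count also held near-copies: 22 rows of the protocadherin gamma cluster on chromosome 18, whose variable exons share a common 3′ part, had counts within 10% of each other in every library, at 7.83 to 8.43 CPM in TG and 5.27 to 5.91 in WT cells, and 20 of them were called higher. Counted once, they leave 1055 called genes, 575 higher and 480 lower, and they lower the share called on chromosome 18 from 13.6% to 8.39%.

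**Figure D1:**
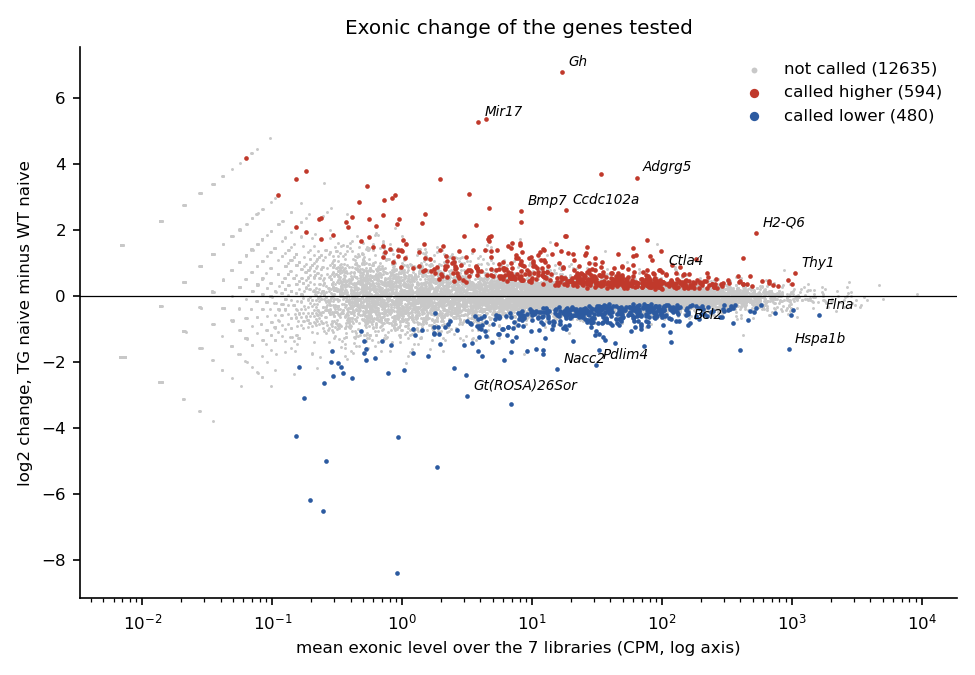
Log2 change of exonic level between TG and WT naive cells (vertical axis) against the mean level over the 7 libraries in CPM (log axis), 1 point for each of the 13709 genes tested; red and blue points are the 594 higher and 480 lower genes called by edgeR. Large changes are few, and Gh, Mir17 and Adgrg5 are among the labelled genes with the largest rises.

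Among the largest rises outside the engineered alleles were neighbouring genes on chromosome 8. Adgrg5, an adhesion G protein-coupled receptor (chromosome 8, 94921811 to 94943293), stood at 96.6, 115, 123 and 87.2 CPM in TG and 8.06, 6.10 and 12.03 in WT cells. The lowest TG library was above the highest WT library, and the rise was 12.1-fold (log2 3.59 ± 0.28, edgeR adjusted p 1.8e-13). Ccdc102a, a coiled-coil protein gene beside it (94902869 to 94918098), rose from 4.185, 4.501 and 5.353 to 25.8, 31.5, 26.3 and 30.3 CPM (log2 2.60 ± 0.22, edgeR adjusted p 2.88e-12). Within 1 Mb of Adgrg5, 38 other genes were tested, and besides Ccdc102a only Setd6, a lysine methyltransferase gene, was called, lower at 19.5 ± 1.57 against 27.4 ± 2.11 CPM. Within 1 Mb of Gt(ROSA)26Sor, 2 of 21 genes were called, and the share over all genes was 7.83%. These were Vhl, the substrate receptor of the ubiquitin ligase for HIF proteins, which rose from 23.4 ± 3.05 to 35.1 ± 2.45 CPM, and Emc3, a subunit of an endoplasmic reticulum membrane insertase, from 56.3 ± 2.10 to 70.0 ± 4.93. The call of Emc3 was kept in 3 of the 7 fits without 1 library (adjusted p 0.14 without WT replicate 4).

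Other rises included secreted and surface proteins. Bmp7, a growth factor of the bone morphogenetic protein family, stood at 11.8, 14.5, 9.62 and 15.4 CPM in TG and 1.33, 1.69 and 3.41 in WT cells, a 5.95-fold rise (edgeR adjusted p 4.7e-08). Adamtsl2, a secreted glycoprotein of the extracellular matrix, stood at 8.63, 5.69, 9.19 and 5.84 against 0.868, 0.871 and 1.71 CPM, 6.35-fold higher (edgeR adjusted p 0.00327). H2-Q6, a nonclassical major histocompatibility class I gene, stood at 868, 705, 795 and 733 against 208, 181 and 227 CPM, 3.77-fold higher (edgeR adjusted p 0.00024); it belongs to a family of near-identical copies among which reads may be split. Tlr12, an innate immune receptor, rose 3.57-fold to 26.2 ± 7.45 CPM, Kcnc1, a voltage-gated potassium channel, 4.43-fold to 5.54 ± 1.70, and Cap2, an actin-binding protein, 4.74-fold to 12.3 ± 1.20. Ier5l, a gene related to the immediate early gene IER5, rose 8.57-fold, from 0.606 ± 0.122 to 5.23 ± 0.295 CPM. For each of these genes the TG and WT libraries did not overlap, and each was called in all 7 fits without 1 library.

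Among the largest falls the groups overlapped for Hspa1a, which is given with the heat shock genes, and lay apart for the genes that follow. Pdlim4, which links actin to signalling proteins, stood at 13.7, 10.6, 14.4 and 13.2 CPM in TG and 56.5, 48.9 and 61.5 in WT cells, a 4.28-fold fall (edgeR adjusted p 7.88e-08). Nacc2, a BTB-domain transcriptional repressor, stood at 5.41, 5.35, 6.51 and 7.14 against 29.2, 24.8 and 30.5 CPM, 4.61-fold lower (edgeR adjusted p 1.03e-05). Myo10, an unconventional myosin of filopodia, stood at 14.6, 17.6, 20.8 and 15.97 against 48.5, 53.9 and 56.9 CPM, 3.08-fold lower. Map3k9, a kinase upstream of JNK, fell 3.21-fold to 3.55 ± 0.452. Galnt9, an enzyme that starts O-linked glycosylation, fell 3.81-fold, Dnajc6, a co-chaperone of clathrin uncoating, 3.51-fold, Wscd2 3.17-fold and Enpp5 3.16-fold. Drc1, a structural protein of motile cilia, fell 5.27-fold from 5.81 ± 1.15 CPM. The genes named from Pdlim4 to Drc1 were called in each of the 7 fits without 1 library.

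**Figure D2:**
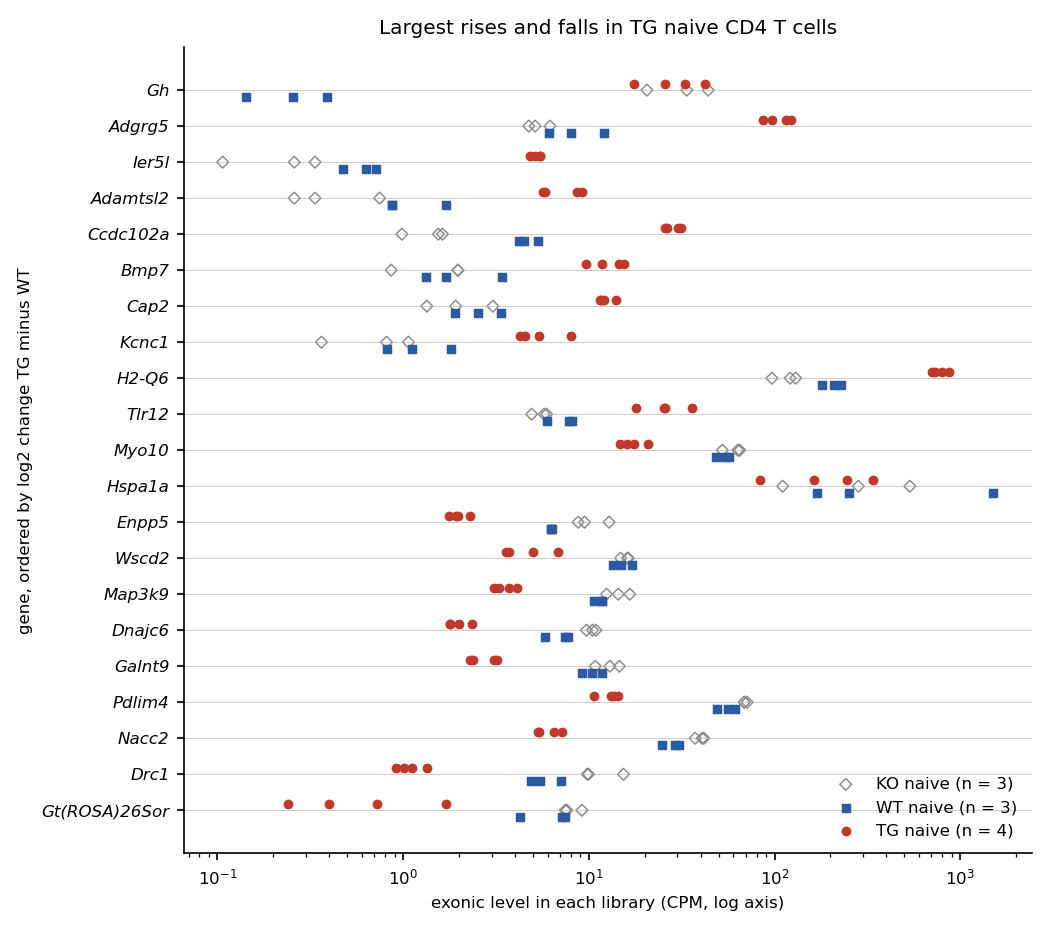
Exonic level of the largest rises and falls named in the text (CPM, log axis) in every naive library; circles are TG (n = 4), squares WT (n = 3) and open diamonds KO (n = 3) libraries. TG circles lie apart from WT squares for every gene shown except Hspa1a, whose WT replicate 1 stands at 1511 CPM, and Gh is high in TG and KO alike.

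KO naive cells were compared with the same 3 WT libraries, so the values that follow share their controls with the TG comparison and are given side by side only. That comparison called 5 of 13709 genes (0.0365%), with 651 at an unadjusted p under 0.05: Gh, Ccdc102a, Tspan9, Adk and Pmel. Ccdc102a stood at 1.39 ± 0.350 CPM in KO, 4.68 ± 0.604 in WT and 28.5 ± 2.83 in TG cells (n = 3, 3 and 4). Tspan9, a tetraspanin, stood at 33.5 ± 3.92 CPM in WT and 109 ± 8.55 in TG cells, with log2 changes of −1.28 in KO and 1.71 in TG cells. H2-Q6 stood at 116 ± 17.2 CPM in KO and 206 ± 23.1 in WT cells, and Nacc2 at 39.9 ± 2.26 and 28.2 ± 2.95, neither of them called. Adk, adenosine kinase, stood at 45.6 ± 8.86 CPM in WT and 25.8 ± 4.20 in TG cells, with log2 changes of 0.85 in KO and −0.82 in TG cells. These genes were named after their values were seen. Adgrg5, Bmp7 and Tlr12 stood at 5.35 ± 0.739, 1.60 ± 0.641 and 5.53 ± 0.534 CPM in KO cells and were not called there.

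The most abundant of the called genes had small changes. Thy1, a glycosylphosphatidylinositol-anchored T cell surface protein, stood at 1272, 1159, 1053 and 1534 CPM in TG and 846, 724 and 760 in WT cells, 1.61-fold higher (edgeR adjusted p 0.0462), with the call kept in 1 of 7 fits without 1 library and an adjusted p of up to 0.171 (without WT replicate 2). Flna, an actin cross-linker, stood at 1294, 1319, 1109 and 1657 against 2075, 1757 and 2173 CPM, 1.49-fold lower (edgeR adjusted p 0.00991), and lost its call without WT replicate 4 (adjusted p 0.0702). Ddx39b, an RNA helicase of splicing and export, rose 1.40-fold to 1066 ± 80.2 CPM (edgeR adjusted p 9.56e-06), and Gimap6, a GTPase of lymphocyte survival, fell 1.49-fold to 810 ± 141 (edgeR adjusted p 0.00551); both were called in all 7 such fits. Itgal, the alpha chain of the integrin LFA-1, Atp5b, a subunit of ATP synthase, and Eif4g2, a translation initiation factor, changed by 0.38, 0.30 and −0.42 (log2), with calls kept in 3, 3 and 5 of the 7 fits; without TG replicate 4 their edgeR adjusted p was 0.12, 0.162 and 0.052.

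Receptors that modulate T cell activation were mostly above their WT level. Of 21 costimulatory and inhibitory receptors tested, 4 rose and none fell, with a median log2 change of 0.31 beside 0.00 over all genes tested. Over all genes 4.33% rose and 3.5% fell, and the counts of each list below are to be read beside these shares. Pdcd1, which encodes the inhibitory receptor PD-1, stood at 16.9, 21.6, 9.24 and 28.5 CPM in TG and 5.92, 8.28 and 9.29 in WT cells, 2.43-fold higher (edgeR adjusted p 0.000363); TG replicate 3 lay within the WT range. Ctla4, an inhibitory competitor of CD28, stood at 127, 126, 138 and 89.7 against 75.3, 78.1 and 62.0 CPM, 1.68-fold higher (edgeR adjusted p 0.0378). Cd160 rose 2.65-fold to 16.8 ± 3.16 CPM and Tigit 1.73-fold to 6.42 ± 1.27. In the 7 fits without 1 library, Pdcd1 was called in 7, Cd160 in 5, Tigit in 3 and Ctla4 in 1; without WT replicate 4 the adjusted p of Tigit was 0.193 and that of Ctla4 0.189, and without WT replicate 2 that of Cd160 was 0.0609. Cd28 itself stood at a log2 change of −0.10 (edgeR adjusted p 0.825).

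Genes of T follicular helper cells, which help B cells in germinal centres, numbered 3 higher and 0 lower of 16 tested, with a median of 0.49. These were Pdcd1, Bmp7 and Tox2, a high mobility group transcription factor that stood at 3.999, 5.16, 2.39 and 5.79 CPM in TG and 0.715, 1.65 and 1.28 in WT cells (edgeR adjusted p 0.0227; called in 3 of the 7 fits, with 0.121 without WT replicate 1). Bcl6, the defining transcription factor of that fate, stood at 0.32 (edgeR adjusted p 0.382), Cxcr5 at 0.46 and Il21 at 0.06 on the log2 scale. Of 15 regulatory T cell genes, 3 rose: Ikzf2, the transcription factor Helios, stood at 69.6, 62.4, 53.1 and 59.2 against 29.6, 34.5 and 34.1 CPM (1.87-fold, edgeR adjusted p 0.00535), Nrp1, a semaphorin co-receptor, at 28.7 ± 4.79 against 15.1 ± 1.40 CPM (edgeR adjusted p 0.00155), and Ctla4 as above. Foxp3, which defines regulatory T cells, stood at 0.39 (edgeR adjusted p 0.451), at 52.6 ± 13.4 CPM in TG and 40.3 ± 9.14 in WT cells. The part of regulatory T cells in these rises was not tested.

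Genes of helper cell subsets changed in both directions. In the Th1 list, 2 of 14 rose and 2 fell. Il12rb1, a chain of the interleukin-12 receptor, stood at 15.3, 14.5, 13.8 and 15.5 CPM in TG and 4.34, 7.55 and 6.87 in WT cells (2.36-fold, edgeR adjusted p 5.99e-06), and Cxcr3, a chemokine receptor, at 10.2, 11.9, 4.17 and 14.2 against 4.08, 4.36 and 5.21 CPM (edgeR adjusted p 0.0347; called in 1 of the 7 fits, with 0.14 without TG replicate 4). Il18r1, the interleukin-18 receptor, fell from 81.9 ± 8.20 to 39.0 ± 4.76 CPM, and Fasl, the death ligand, from 17.3 ± 2.29 to 5.74 ± 0.563, with TG and WT libraries apart and both called in all 7 fits. Among 11 Th2 genes Ccr8, a chemokine receptor, alone was called, at 10.7, 11.8, 12.02 and 10.9 against 3.98, 4.16 and 2.99 CPM (3.06-fold, edgeR adjusted p 0.000867). Among 11 Th17 genes only Rora, described below, was called. Of 26 memory and effector genes, Cxcr3 rose and 2 fell: Prdm1, the transcription factor Blimp-1, at 4.21 ± 0.695 against 10.8 ± 0.768 CPM, and Crip1 at 74.1 ± 12.5 against 137 ± 28.6. The call of Prdm1 was kept in 1 of the 7 fits (adjusted p 0.112 without WT replicate 4) and that of Crip1 in 6 (0.0617 without WT replicate 1). In TG replicate 3, where Cxcr3 and Pdcd1 were lowest of the TG libraries, the median NK and innate-like marker stood at −0.93 relative to the WT mean, beside −0.29 to 0.13 in the other TG libraries; its part in these values was not tested.

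Genes of the naive and quiescent state were mostly below their WT level. Of 25 tested, 2 fell and none rose, 21 had a negative change, and the median was −0.23. In each TG library the list's median lay between −0.34 and −0.18 relative to the WT mean, and in the WT libraries between −0.05 and 0.08, without overlap. Lef1, a transcription factor of naive T cells, stood at 442, 433, 413 and 460 CPM in TG and 660, 629 and 556 in WT cells (1.41-fold lower, edgeR adjusted p 0.0224; called in 4 of the 7 fits, with 0.088 without WT replicate 1), and Cd55, a complement regulator, at 57.6 ± 6.18 against 97.7 ± 5.40 CPM (edgeR adjusted p 0.0339; 1 of the 7, with 0.114 without TG replicate 4). Il7r, the receptor for the survival cytokine interleukin-7, had the largest negative value, −1.18, and did not pass (edgeR adjusted p 0.131). Of 25 early activation genes none rose and Myc, which drives growth, fell from 160 ± 6.28 to 110 ± 7.75 CPM (edgeR adjusted p 0.0495), a call lost in each of the 7 fits without 1 library, where the adjusted p was 0.0618 to 0.168. Cd69, an early activation marker, stood at −0.08 (edgeR adjusted p 0.926).

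In the BCL2 family, which sets the threshold for apoptosis, 1 of 17 members rose and 1 fell, beside 4.33% and 3.5% of all genes tested. Bcl2, the survival factor of resting T cells, stood at 126, 107, 108 and 122 CPM in TG and 202, 227 and 212 in WT cells, 1.85-fold lower (edgeR adjusted p 0.0065), with no overlap. Bok, a death effector, was called higher on very low counts, 2, 6, 10 and 7 in TG and 0, 0 and 1 in WT libraries. Bcl2l11, which encodes BIM and is a known target of the cluster, stood at −0.17 (edgeR adjusted p 0.623).

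Cell cycle genes were mostly above their WT level. Of 31 tested, 5 rose, none fell and 28 had a positive change, with a median of 0.21. The list's median relative to the WT mean was 0.13 to 0.43 in the TG libraries and −0.10 to 0.18 in the WT libraries, and the groups overlapped, with TG replicate 3 below WT replicate 2. Mcm5, a subunit of the replicative helicase, stood at 89.2, 88.3, 75.3 and 102 CPM in TG and 54.0, 55.3 and 62.1 in WT cells (1.55-fold, edgeR adjusted p 4.28e-05), and Top2a, the topoisomerase of chromosome condensation, at 52.1, 65.8, 43.1 and 56.9 against 26.8, 40.2 and 33.3 CPM (1.63-fold, edgeR adjusted p 0.000597). Both were called in all 7 fits without 1 library. The mitotic genes Aurkb, Tpx2 and Birc5 rose 1.71-, 1.54- and 1.46-fold at 4.70 to 7.79 CPM in TG cells, with calls kept in 6, 4 and 2 of the 7 fits; without WT replicate 1 the adjusted p was 0.111 for Tpx2 and 0.18 for Birc5, and without WT replicate 4 that of Aurkb was 0.0539. The remaining helicase subunits Mcm2, Mcm3, Mcm4, Mcm6 and Mcm7 stood between −0.20 and 0.21. In stimulated cells, Mcm5 stood at 743 ± 148 CPM in TG and 729 ± 168 in WT libraries (n = 16 each) and Top2a at 1114 ± 152 and 1053 ± 114.

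Genes for making ribosomes were mostly below their WT level. Of 28 tested, 4 fell, none rose and 25 had a negative change, with a median of −0.18. In every TG library the list's median lay between −0.19 and −0.14 relative to the WT mean, and in WT libraries between −0.05 and 0.04. Polr1a and Polr1b, the 2 largest subunits of RNA polymerase I, fell 1.33-fold each, to 109 ± 12.1 and 41.5 ± 5.18 CPM (edgeR adjusted p 0.0181 and 0.0378). Utp20 and Rrp1b, factors of ribosomal RNA processing, fell 1.498- and 1.28-fold (edgeR adjusted p 0.0387 and 0.0207). None of the 4 calls was kept in all 7 fits without 1 library (4, 2, 0 and 2 for Polr1a, Polr1b, Utp20 and Rrp1b); without WT replicate 4 the adjusted p was 0.1, 0.282, 0.135 and 0.0912. The cholesterol list gave 3 falls and no rise in 23 genes, with a median of −0.12. Among them the biosynthetic enzymes Sqle and Lss fell 1.47- and 1.41-fold and were called in 3 and 0 of the 7 fits (adjusted p 0.221 and 0.225 without WT replicate 4).

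Heat shock genes rested on a single library. Hspa1b, which encodes the inducible chaperone HSP70, stood at 596, 808, 384 and 218 CPM in TG and 3508, 450 and 618 in WT cells, and Hspa1a at 247, 341, 164 and 83.4 against 1511, 169 and 252. Among the TG and WT libraries only WT replicate 1 stood apart. The summed level of the 18 heat shock genes was 20368 CPM there against 8858 to 9034 in the other WT and 8291 to 12678 in the TG libraries. Replicate 1 had the highest sum in each genotype, at 12678 CPM in TG and 14136 in KO cells, and Hspa1b stood at 1377 CPM in KO replicate 1. What these replicates share was not tested. Of these 18 genes, 3 were called lower (Hspa1a, Hspa1b and Dnajb1). Without WT replicate 1 their log2 changes were −0.02, −0.10 and −0.004 (edgeR adjusted p 0.996, 0.944 and 0.999).

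No member passed the test among 25 antigen receptor signalling genes (median 0.07), 24 regulators of PI3K, AKT and mTOR (0.05), 20 glycolysis genes (0.11), 24 interferon response genes (−0.16) or 20 genes of microRNA processing and Argonaute proteins (−0.13). In the list of calcineurin and NFAT genes, 2 of 17 were called, Ppp3cc up and Rcan3 down. Single calls were made in the lists of TGF-beta and BMP signalling (Bmp7 of 21) and CDK inhibitors with the RB family (Cdkn2c, up 1.64-fold, of 10). Ppp3cc, a catalytic subunit of calcineurin, was called in 0 and Cdkn2c, an inhibitor of CDK4 and CDK6, in 2 of the 7 fits, with adjusted p of 0.168 and 0.0979 without WT replicate 4. None of the 15 B cell, 7 CD8, 22 myeloid and 10 erythroid and platelet markers tested was called. Their median log2 changes were 0.02, 0.14, −0.22 and −0.67, with 7, 3, 18 and 8 negative members. The NK and innate-like list had a median of −0.41, with 9 of 13 negative. For each of these lists the library medians of TG and WT overlapped. At the same replicate number, summed myeloid markers were lower in TG than in WT libraries: 230.2 and 278.2, 330.9 and 399.6, and 471.7 and 585.7 CPM for numbers 1, 2 and 4. Summed erythroid and platelet markers were also lower at each number. Summed CD8 and NK and innate-like markers were higher at each, and B cell markers went both ways. The part of these cells in the changes was not tested. In the NK and innate-like list 1 of 13 was called, Ncr1. It fell from 8.10 ± 4.37 to 3.64 ± 1.76 CPM (edgeR adjusted p 0.0487) and lost its call in 5 of the 7 fits (adjusted p 0.467 without WT replicate 4). Its WT level was highest in replicate 4 at 12.9 CPM.

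**Figure D3:**
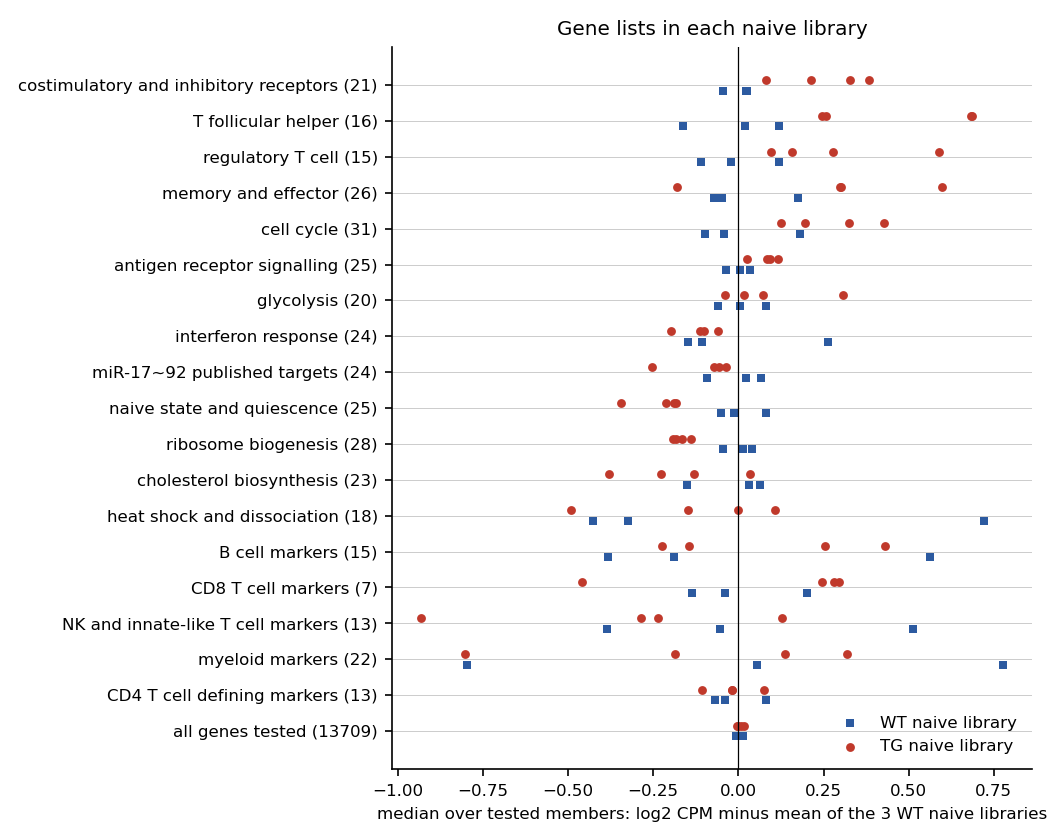
Median over the tested members of each gene list of log2 CPM minus the mean of the 3 WT naive libraries (horizontal axis), 1 circle per TG and 1 square per WT library; the number of members is in brackets. TG and WT libraries lie apart for the naive state, ribosome biogenesis, costimulatory and inhibitory receptor, and T follicular helper lists. They overlap for the markers of B, CD8, NK and myeloid cells.

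Published targets of the cluster were examined one by one. Of 24 tested, 2 fell and 1 rose, beside 3.5% and 4.33% of all genes, and 17 had a negative change, with a median of −0.09. Rcan3, a regulator of calcineurin, stood at 49.2, 52.1, 51.2 and 48.8 CPM in TG and 89.2, 95.6 and 97.6 in WT cells, 1.87-fold lower (edgeR adjusted p 0.000195) and called in all 7 fits without 1 library. Zbtb4, a transcriptional repressor that binds methylated DNA, stood at 84.3, 79.9, 67.3 and 88.5 against 122, 126 and 125 CPM, 1.55-fold lower (edgeR adjusted p 0.0269), with the call kept in 2 of the 7 (adjusted p 0.086 without WT replicate 4). Rora, a nuclear receptor, went the other way, at 37.6, 36.6, 40.0 and 25.9 against 13.2, 15.9 and 13.7 CPM, 2.45-fold higher (edgeR adjusted p 0.00438; 7 of 7). Phlpp2 and Cyld, much studied targets that restrain AKT and NF-kB signalling, stood at 0.07 and −0.24 (edgeR adjusted p 0.873 and 0.0909), and Tgfbr2 and Rbl2 at −0.32 and −0.34.

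Seed matches in the longest annotated 3′ UTRs of these genes (GENCODE, GRCm38) are shown with the match in capitals, since an 8-base match, the reverse complement of seed bases 2 to 8 followed by A, is the site class used below. They were searched on the transcript strand only and are written 5′ to 3′ on it. The Rcan3 site lies at chr4:135416225-135416254 (minus strand). The Zbtb4 site shown lies at chr11:69781257-69781286 and the Rora site shown, 1 of 3 for miR-19, at chr9:69379389-69379418 (both plus strand). Zbtb4 also holds an 8-base match for miR-18a, and Rora holds 8-base matches for miR-92a and miR-18a, which are not shown. Rcan3 and Zbtb4 show the match GCACTTTA of miR-17 and miR-20a, and Rora shows TTTGCACA. A match is a description of the sequence and not evidence that it is used.
Rcan3: cagtattctcaatgGCACTTTAagtgacaa
Zbtb4: aaatcttgtttctgGCACTTTAgaaaaact
Rora: agttgcggcgttacTTTGCACAgcttgctt

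Intronic counts come mostly from unspliced RNA, so they show whether an exonic change is also seen before splicing. In introns edgeR called 94 of 12366 genes (0.76%), 45 higher (0.364%) and 49 lower (0.396%), with 1100 at an unadjusted p under 0.05. With DESeq2 size factors the split of the intronic calls was 52 higher and 35 lower. Without TG replicate 1 or WT replicate 4 the intronic count was 48, without WT replicate 2 it was 51 and without TG replicate 2 it was 56. Of the 998 called exonic genes that could be tested in introns, 849 (85.1%) had the same sign there, beside 64.6% of all 11350 genes tested in both. The share was 427 of 456 (93.6%) for falls and 422 of 542 (77.9%) for rises, a difference that was not tested. Intronic changes leaned downward over all genes, with 56.8% below 0 among 10917 genes with an annotated 3′ UTR. Falls and rises therefore do not start from the same share, and the 64.6% is not split by direction. The median fall was −0.54 in exons and −0.38 in introns, and the median rise 0.53 and 0.27. Introns called 66 of the 998 in the same direction and none in the opposite direction. Over the 998 genes, Pearson's r between the exonic and the intronic change was 0.78, a description across genes that share libraries and are not independent.

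Many of the leading genes were seen in both kinds of counts. Intronic counts of Adgrg5 stood at 101 ± 22.8 CPM in TG and 7.32 ± 3.92 in WT cells, a log2 change of 3.80 in introns beside 3.59 in exons, and those of Ccdc102a at 29.1 ± 4.05 and 4.96 ± 1.496 (2.55 beside 2.60). Adamtsl2, Bmp7, Cap2 and H2-Q6 rose in introns by 3.30, 2.01, 1.90 and 1.73, and Pdlim4, Galnt9, Myo10 and Wscd2 had intronic changes of −2.38, −1.54, −1.25 and −1.37, all called by edgeR. Kcnc1 and Dnajc6 stood at 1.73 and −1.34 in introns and did not pass (edgeR adjusted p 0.0544 and 0.0646). Nacc2, Drc1 and Map3k9 fell in exons by 2.21, 2.40 and 1.68 and stood at −0.78, −0.74 and −0.62 in introns (edgeR adjusted p 0.42, 0.779 and 0.688), and the difference between exons and introns passed for none of these 5 genes. Rcan3, Zbtb4 and Rora had intronic values of −0.86, −0.54 and 1.18, close to their exonic ones, without passing the test (edgeR adjusted p 0.0973, 0.674 and 0.0806). Of the 146 called genes with a 2-fold exonic change that were tested in introns, 139 had the same sign and 39 were called there, and the median ratio of intronic to exonic log2 change was 0.74. Intronic list medians were −0.30 (naive state), −0.28 (ribosome biogenesis), 0.15 (cell cycle) and 0.22 (T follicular helper). Regulatory T cell genes stood at 0.05 and costimulatory and inhibitory receptors at −0.04, beside 0.31 for both in exons. The median of all genes tested in introns was −0.03.

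**Figure D4:**
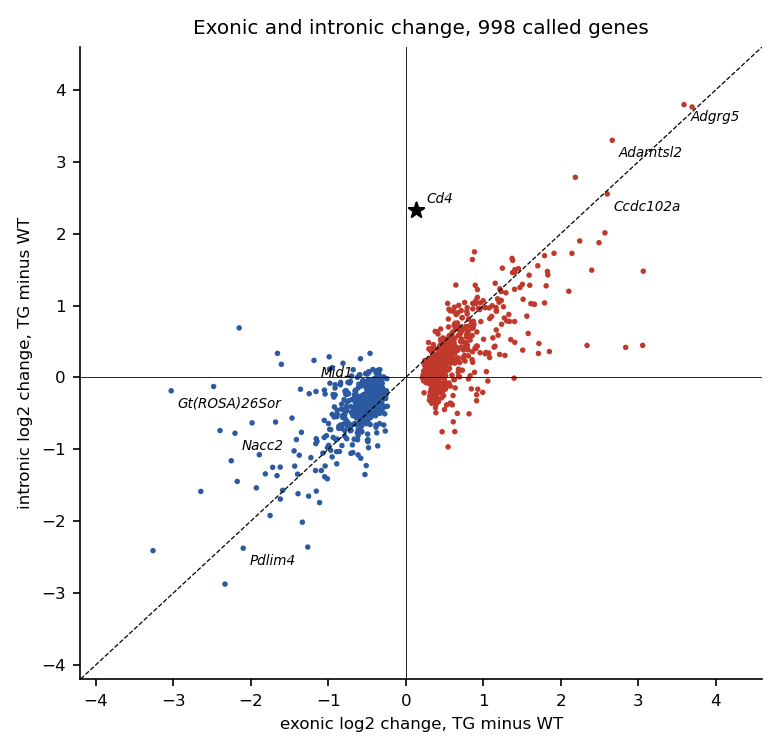
Intronic log2 change (vertical axis) against exonic log2 change (horizontal axis) between TG and WT naive cells for the 998 exonic called genes tested in both; red is higher and blue lower in exons, the dashed line marks equal change and the star adds Cd4. Most points share a sign, with 849 of 998 in the upper right or lower left, and Cd4 stands high on the intronic axis alone.

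The difference between the exonic and the intronic change passed the test for few genes. edgeR called 12 of 11350 (0.106%), 7 positive (0.0617%) and 5 negative (0.044%), with 1000 at an unadjusted p under 0.05. Over 12 alternative settings the count ran from 2 to 22, and with 1 TMM factor per library, which moved the median of all genes from 0.03 to 0.20, the split was 2 positive and 4 negative. Cd4 (−2.22 ± 0.20) and Gt(ROSA)26Sor (−2.89 ± 0.36) were called in all 13 settings. Mid1, a microtubule-associated ubiquitin ligase gene on the X chromosome, was called in 11. Its exons stood at 17.0, 16.4, 25.0 and 19.8 CPM in TG and 51.0, 41.6 and 40.9 in WT cells, and its introns at 33.1 ± 8.64 and 28.1 ± 3.66, a difference of −1.41 ± 0.24 (edgeR adjusted p 0.00111). In KO cells Mid1 exons ranged widely, at 29.0, 85.6 and 22.7 CPM. Tacc3, a mitotic spindle protein, was called in 6 settings (0.76 ± 0.15). Ormdl2, a regulator of sphingolipid synthesis, was called in 5; Glb1, Ahsa1 and Ankib1 in 4 each, and Stip1, Tdg and Trappc9 in 3 each. The count was 22 without TG replicate 3, 21 without WT replicate 1, and 5 or 6 without any other library. None of the 24 published targets was called on this measure.

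Genes were then grouped by seed match, a grouping made after the data had been seen and given without a test. Of the 12758 genes tested that have an annotated 3′ UTR, 549 (4.30%) hold an 8-base match for miR-17 and miR-20a (GCACTTTA), 728 (5.71%) for miR-19a and miR-19b (TTTGCACA), 341 (2.67%) for miR-92a (GTGCAATA), 211 (1.65%) for miR-18a (GCACCTTA), and 8629 (67.6%) hold not even a 7-base match to any of the seeds. The median exonic change was −0.12 for miR-17 and miR-20a, −0.07 for miR-19, −0.10 for miR-92a and −0.01 for miR-18a, beside 0.03 for genes with no match. In introns the same classes stood at −0.01, 0.01, 0.04 and 0.01, beside −0.06 with no match. Genes with any 8-base match fell in 7.03% and rose in 3.25% of cases, and genes without a match in 2.80% and 5.09%. Matched genes have longer 3′ UTRs, with a median of 2457 bases against 768, and the medians stood below those of unmatched genes in each of 3 equal groups by 3′ UTR length: −0.16, −0.09 and −0.07 for any match against 0.04, 0.02 and 0.02, from the short to the long group.

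The same shift was read in each library as the median of a class minus that of genes with no match, after each gene was centred on the midpoint of its TG and WT means. For miR-17 and miR-20a it was −0.05, −0.06, −0.02 and −0.17 in the 4 TG libraries and 0.06, 0.08 and 0.06 in the 3 WT libraries, so the groups did not overlap. For any 8-base match it was −0.04, −0.04, −0.02 and −0.15 against 0.05, 0.07 and 0.04. The shift was largest in TG replicate 4, the library with the lowest Mir17, Mir18 and Mir20a counts. For miR-18a the TG and WT libraries overlapped. Without TG replicate 4 the shift of the median change from that of unmatched genes was −0.07 in place of −0.11 for any match, −0.06 in place of −0.09 for miR-19 and −0.02 in place of −0.04 for miR-18a, which was −0.02 without WT replicate 2 as well. In intronic counts the TG and WT libraries overlapped for every class. For any 8-base match they stood at 0.09, 0.01, −0.07 and 0.08 in TG and 0.08, 0.02 and −0.20 in WT libraries, with WT replicate 4 the lowest. This spread is wider than the exonic shift of −0.11, so the overlap cannot show whether introns lack such a shift.

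**Figure D5:**
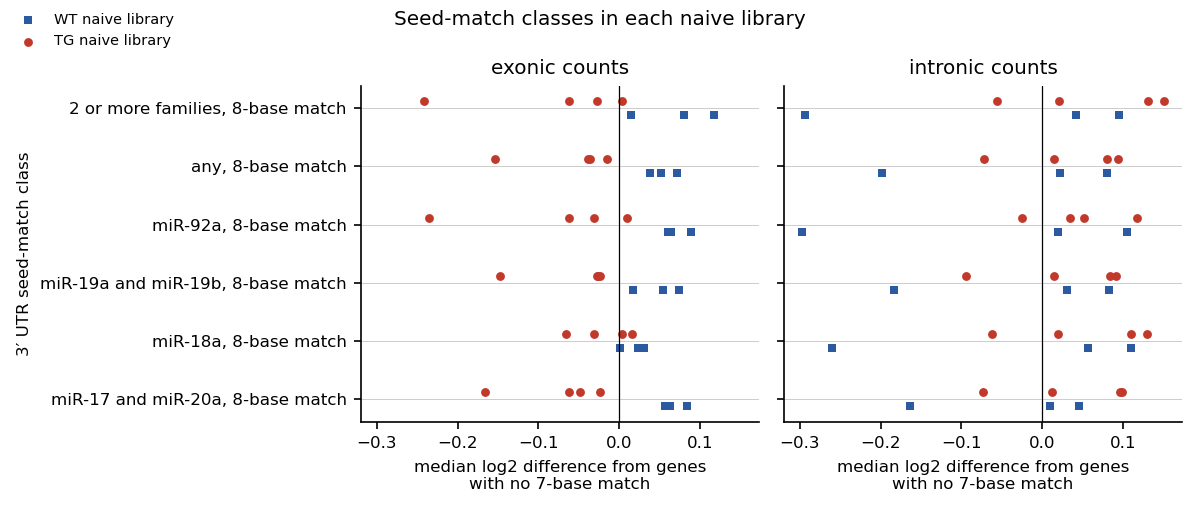
Median log2 difference between genes with an 8-base 3′ UTR seed match and genes with no 7-base match, each gene centred on the midpoint of its TG and WT means (horizontal axis), in exonic (left) and intronic (right) counts; 1 circle per TG and 1 square per WT naive library. In exonic counts the TG libraries lie to the left of the WT libraries for the miR-17 and miR-20a, miR-19 and miR-92a classes and overlap for miR-18a, and in intronic counts they overlap for every class.

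The effect of the TG genotype was also set against its mean effect in stimulated cells, which were cultured with interleukin-2 on plates carrying antibodies to CD3 and CD28, in 4 states that differ in time and antibody dose, with 4 TG and 4 WT libraries each. The stimulated comparison uses no library of the naive one and called 4634 of 13709 genes (33.8%). Of the 1074 naive calls, 482 were called there with the same sign, which is 44.9% of the naive and 10.4% of the stimulated calls, and 68 with the opposite sign. The difference between the naive and the stimulated effect, tested itself, passed for 847 genes (6.18%), 497 more positive in naive cells (3.62%) and 350 more negative (2.55%). This count was 387 without WT replicate 4, 493 without WT replicate 2 and 543 without TG replicate 4. Of the 1074 naive calls, 391 (36.4%) were among them. Both tests use the same naive libraries, and choosing genes by their naive change favours passing the test of the difference. The 36.4% is therefore not comparable with the 6.18% of all genes.

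Some leading genes kept their change after stimulation and others did not. Ccdc102a, Pdlim4 and Galnt9 had stimulated changes of 1.91, −1.77 and −1.79, and the difference from the naive change did not pass (edgeR adjusted p 0.0584, 0.605 and 0.882). Adgrg5 rose in both, by 3.59 in naive and 2.31 in stimulated cells, with a difference of 1.29 (edgeR adjusted p 0.00497). Il12rb1, at 1.24 in naive cells, stood at 0.08 after stimulation, where its level was 234 ± 28.5 CPM in TG and 222 ± 20.5 in WT libraries (difference 1.16, edgeR adjusted p 0.000105). Pdcd1 and Prdm1 had opposite signs: Pdcd1 stood at 1.28 in naive and −0.45 in stimulated cells (edgeR adjusted p of the difference 2.36e-05), and Prdm1 at −1.36 and 1.41 (0.00015). Myo10 fell in naive cells by 1.62 and stood at 0.16 after stimulation (edgeR adjusted p of the difference 0.000524). Rcan3 and Zbtb4, the called targets, fell in both settings, by 0.90 and 0.64 in naive and by 0.56 and 0.73 in stimulated cells, whereas Rora stood at 1.29 in naive and 0.12 in stimulated cells (edgeR adjusted p of the difference 0.0253).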

How the data were processed

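Polyadenylated RNA of 58 libraries was sequenced as single-end 76-base reads with a stranded kit, per the labels' protocols. The deposited values are raw counts per gene in 2 tables, a full gene table, here called exonic, and an intronic table, of 24028 genes each. Per the submitters' processing notes, edgeR 3.24.3 and STAR 2.5.2a were used with mm10, beside R 3.5 and FastQC 0.11.5. No source used here names the program that made the counts or how it treated strand. In 14.1% of values the intronic count was above the full one, so the full table was not treated as containing the introns. Symbols and coordinates came from RefSeq and a GENCODE annotation of GRCm38; 53 genes have no name.

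Counts were fitted with edgeR 4.0.16 in R 4.3.3 (quasi-likelihood F test, TMM factors, filterByExpr) over all 58 libraries in 15 groups, with 43 residual degrees of freedom. Adjusted p-values are Benjamini-Hochberg over all genes tested, with calls under 0.05. CPM use TMM-scaled totals. The exonic and intronic changes were compared in 1 model with the library as a block. Libraries of 1 group differed by more than sampling noise (chi-square per gene 10.2 to 63.8), so none was counted as a duplicate. The scripts were tested on simulated data.

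Genes named in the text were the marks of the alleles, the 12 largest rises and 12 largest falls at 5 CPM or more, up to 6 called members of each of the 29 lists, called targets, the largest changes of the other comparisons, the 8 most abundant called genes and called neighbours within 1 Mb. Some genes that these rules or lists take in are not reported here. The genes and lists were chosen with earlier results of these data known. DESeq2 1.42.0, other scalings, filters and library sets, and leaving out each library, were tried as alternatives.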

Additional observations from a re-analysis of the deposited data

Results flagged for a closer look

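In 103 groups of values examined, 5 values of TG libraries stood apart from the other 3 of their group, 3 of them in replicate 3 and 2 in replicate 4, where chance alone sets apart about 1 in 20 groups. TG replicate 3 was high for the ribosome biogenesis genes Rrp1b (61.85 CPM) and Polr1b (49.21 CPM) and for the lymphocyte GTPase Gimap6 (1020 CPM), and for all 3 it lay nearer the WT level than the other TG libraries did. TG replicate 4 was low for Myc (98.58 CPM) and high for Emc3 (77.32 CPM), and in both it lay farther from the WT level.

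The TG effect differed between naive and stimulated cells for 48 of the 89 named genes (edgeR test of the difference, adjusted p under 0.05). The log2 difference, naive minus stimulated, is given for each. Over all genes 847 of 13709 (6.18%) passed. Some genes were named because they passed this test, and 82 of the 89 had a naive call, which is part of it. The 48 is thus raised by the choice of genes and is not comparable with that share. Among the marks of the alleles it was 4.08 for Mir17, 3.80 for Mir18, 2.73 for Mir20a, 1.31 for Mir17hg and 0.42 for Cd4. Gt(ROSA)26Sor had 3.21, with changes of −6.23 in stimulated cells and −3.03 in naive cells. Its stimulated level was 5.19 CPM in WT and 0.064 in TG libraries, so the size of that fall rests on TG values near the floor. Among the large naive rises the difference was 1.29 for Adgrg5, 2.42 for Ier5l, 1.26 for Bmp7, 1.48 for Cap2 and 1.34 for Tlr12, all of which rose in stimulated cells too. It was 3.29 for Adamtsl2 and 3.61 for Bok, whose stimulated changes of −0.62 and 0.17 did not pass the test (edgeR adjusted p 0.405 and 0.64). Both were near the floor in stimulated cells, Adamtsl2 at 0.104 CPM in TG and 0.105 in WT libraries and Bok at 0.592 and 0.518. A loss of the change can therefore not be read from these levels. Among the large naive falls the difference was −1.43 for Nacc2 and −1.78 for Myo10.

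Immune genes had differences in both directions: 1.73 for Pdcd1, 1.504 for Cd160, 0.82 for Ctla4, 2.18 for Tox2, 1.16 for Il12rb1, 1.17 for Rora and 0.57 for Itgal, and −2.77 for Prdm1 and −1.89 for Fasl. Cell cycle and spindle genes had 0.60 (Mcm5), 0.63 (Top2a), 0.78 (Aurkb), 0.61 (Tpx2), 0.47 (Tacc3) and 1.05 (Cdkn2c). Genes of growth, ribosome production, sterol synthesis and translation had −0.64 (Myc), −0.43 (Polr1a), −0.54 (Rrp1b), −0.65 (Utp20), −0.65 (Sqle) and −0.41 (Eif4g2). Heat shock genes had −2.27 (Hspa1a), −2.45 (Hspa1b) and −2.17 (Hspa1l). These genes were highest in WT naive replicate 1, and its part in these differences was not tested. The remaining ones were 0.89 for Vhl, −0.52 for Setd6, 0.38 for Ddx39b, 0.66 for Ormdl2 and 0.53 for Trappc9.

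Besides Cd4, 4 of these genes did not pass the test in naive cells and did so in stimulated cells. Apol9a and Apol9b, apolipoprotein genes, had 3.81 and 3.34, with stimulated changes of −3.48 and −3.08. Their stimulated levels were low in both genotypes: 0.086 CPM in TG and 0.371 in WT libraries for Apol9a, and 0.209 and 0.675 for Apol9b. Epas1, which encodes the hypoxia-inducible factor HIF-2 alpha, had −3.17 with a stimulated change of 2.54, and Lbp, a lipopolysaccharide-binding protein, had −2.51 with 1.62. In stimulated cells Epas1 stood at 16.9 CPM in TG and 1.66 in WT libraries, and Lbp at only 0.416 and 0.137.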

How the results depend on the processing

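The 1074 exonic calls (594 higher, 480 lower) were 1086 with the 10 naive libraries only (525 and 561), 662 of them shared, 1148 with the 7 TG and WT libraries only (574 and 574), 687 of them shared, 1258 with DESeq2, 1094 with DESeq2 size factors and 800 without the filter. Counting rows that share reads once, an alternative chosen after seeing the data, gave 1055. Leaving out 1 library gave 526 to 1195 exonic calls, 48 to 94 intronic calls, 5 to 22 calls of the exonic minus intronic change and 387 to 965 of the naive minus stimulated effect; the lowest exonic counts were 526 without WT replicate 4, 636 without TG replicate 4 and 646 without WT replicate 2. The 94 intronic calls were 47 with the 7 libraries only and 56 without the filter. The 12 calls of the exonic minus intronic change were 6 with 1 TMM factor per library, 2 with the 10 naive libraries only, 3 with the 7 libraries only and 3 with no library block. The cause of these moves was not tested. Replicate numbers do not pair the libraries by the labels, and the correlations of deviations between same-numbered TG and WT libraries were 0.366, −0.0487 and 0.18 for numbers 1, 2 and 4. Some marker lists nevertheless followed the number. The median of the myeloid list relative to the WT mean was −0.80 in replicate 1 of TG, WT and KO cells alike. That of the erythroid and platelet list was 0.33, 0.89 and 0.38 in replicate 2 of TG, WT and KO cells and negative in every other naive library. What same-numbered libraries share was not tested. With a replicate block the counts were 2102 exonic, 200 intronic and 1827 naive minus stimulated; with a replicate block and the 10 naive libraries only they were 1742 exonic and 58 intronic. Of 1235 values of named genes under these alternatives, 1018 stayed on their side of the threshold, 211 no longer passed, 6 newly passed and 0 changed sign, and 144 of 406 list counts moved by over 1.5 times. Depth limits Mir17, Mir18, Mir19a, Mir20a and Bok, whose counts in single WT libraries were 0 to 12. It also limits the stimulated changes of Apol9a, Apol9b, Lbp and Adamtsl2, whose stimulated levels, given above, were low in both genotypes.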
